A study of Mus musculus with 36 samples.

Results

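Aminoacyl-tRNA synthetases are the enzymes that attach each amino acid to its tRNA. Their mRNAs were taken by gene symbol (a one-letter amino acid code followed by ars, with the names of multi-subunit and bifunctional enzymes), and no measured value was used. This gave 38 members of the 16614 rows of the count table, all of them protein-coding. Of these, 21 encode enzymes of the cytosol and 17 encode enzymes of the mitochondrion, whose symbols end in 2. Tarsl2 was placed with the cytosolic enzymes although its symbol ends in 2.

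The libraries came from whole brains of mice at postnatal day 5, WT C57BL/6 or FMR1 KO, with 10 brains pooled for a preparation. FMR1 KO mice lack the RNA binding protein FMRP in every cell and are a common model of fragile X syndrome. Brain homogenate was sedimented through sucrose, and ribosome-protected fragments (RPFs, the pieces of mRNA that a ribosome shields from nuclease) were sequenced from the pellet, whose compacted ribosome clusters are thought to come from RNA granules but may not be granules alone, and from fraction 5/6, which holds ribosome clusters that do not pellet. RNA-seq of whole homogenate was made beside them. Each was made for both genotypes under standard nuclease (MgCl2 at 10 mM) and under low nuclease (MgCl2 at 2.5 mM), with 3 libraries in each of the 12 groups and 36 libraries in all.

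Cytosolic synthetases charge the tRNAs used by cytosolic ribosomes. A second set, encoded by other nuclear genes and imported, charges the tRNAs of the mitochondrion. Lysine (Kars) and glycine (Gars) are exceptions, for which a single gene gives the enzyme of both compartments. The mitochondrion has no glutaminyl enzyme and makes its glutaminyl-tRNA from glutamyl-tRNA with an amidotransferase. Several cytosolic enzymes (Eprs, Lars, Iars, Mars1, Qars, Rars, Kars and Dars) sit with the scaffold proteins Aimp1, Aimp2 and Eef1e1 in the multisynthetase complex. Variants in synthetase genes of both sets cause inherited neuropathies and leukodystrophies.

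In the standard preparation, total counts ran from 112249206 to 147216378 for RNA, from 21710393 to 40174168 for the pellet and from 6765065 to 33212827 for fraction 5/6. Cdk8 took 36.7% to 63.4% of the counts of these RPF libraries, so all levels are CPM, counts scaled to a common library total without Cdk8. Fmr1, the targeted gene, stood at 60.6 to 71.9 CPM in WT RNA and at 16.4 to 18.1 CPM in FMR1 KO RNA. In the pellet it stood at 64.6 to 67.8 CPM in WT and at 4.79 to 4.93 CPM in FMR1 KO. In fraction 5/6 of the standard preparation, the library labelled WT replicate 3 had 3.17 CPM of Fmr1, where the other WT libraries had 68.6 and 100.1 CPM and the FMR1 KO libraries 5.98 to 10.7 CPM. This library goes against its label, and its fraction 5/6 comparisons are also given without it. The low nuclease RNA had 3 libraries that stood apart, replicate 2 of WT with replicates 2 and 3 of FMR1 KO, where the top 10 genes held 81.5% to 85.0% of the counts. Neuronal markers were present in every library, from 603 to 11254 CPM over 5 genes. Markers of blood summed to 178 to 419 CPM in standard RNA and to 2.16 to 9.80 CPM in standard RPFs. In pellet over RNA by TMM, 2 of 4 astrocyte markers passed as higher and none as lower (median log2 fold change 1.10 in WT and 1.03 in FMR1 KO), 4 of 5 neuronal markers were higher (0.75 and 0.61, with 1 lower in FMR1 KO), 2 of 4 microglial markers were higher (0.35 and 0.42, with 1 lower in WT) and 2 of 4 oligodendrocyte markers were lower (-0.83 and -0.99). In CPM the astrocyte markers summed to 326 to 524 in standard RNA and to 336 to 525 in the pellet, and the oligodendrocyte markers to 411 to 774 and to 66.5 to 138. The part of such differences between library types in the results was not tested. The labels number the libraries of a group and do not say that each came from its own pool of brains, so p-values measure the spread between these libraries. Fewer cells of a type and less RNA per cell cannot be told apart in whole brain.

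The RPFs of the pellet were not spread evenly on the synthetase mRNAs. Peaks of RPF coverage were called by the authors for each library of the standard preparation. In the 6 pellet libraries, 759 peaks lay on 18 of the 21 cytosolic mRNAs, all of them within the coding sequence, and 10 of these mRNAs had a peak in every library. On the mitochondrial mRNAs there were 42 peaks on 6 of 17, and 1 of these mRNAs had a peak in every library. Of the 16561 protein-coding genes of the count table, 35.2% had a pellet peak in at least 1 library and 15.7% in all 6. Tars had the most peaks (93), followed by Eprs (87), Lars (81), Nars (67) and Aars (66), and Dars, Gars and Qars had none in the pellet. The peaks of Gars were absent at a level of 273 to 304 CPM in the WT pellet, above that of Tars (92.7 to 96.5 CPM). Gars and Qars also had no peak in the libraries of ribosome clusters that do not pellet. Whether the peak calling covered these mRNAs was not tested, so their lack of peaks cannot show how the number of peaks relates to the level. Among mRNAs with peaks, Nars had fewer than Tars, although its level in the WT pellet was higher, as given below. The relation of peak number to level was not tested over the members.

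Peak positions differed among the enzymes. All 66 peaks of Aars, the alanyl enzyme, lay beyond the midpoint of the coding sequence, as did 72 of 87 for Eprs and 55 of 67 for Nars. For Tars 38 of 93, for Lars 32 of 81 and for Iars 9 of 30 lay there. Over the members on the transcripts used for the whole table, 59.1% of 702 coding peaks lay beyond the midpoint, and over all mRNAs it was 56.0% of 129616. The share of all peaks that lay in coding sequence was 97.9% for the members and 98.2% for all mRNAs. Peaks of a library share its reads and those of a gene share its sequence, so these shares are descriptions.

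**Figure D1:**
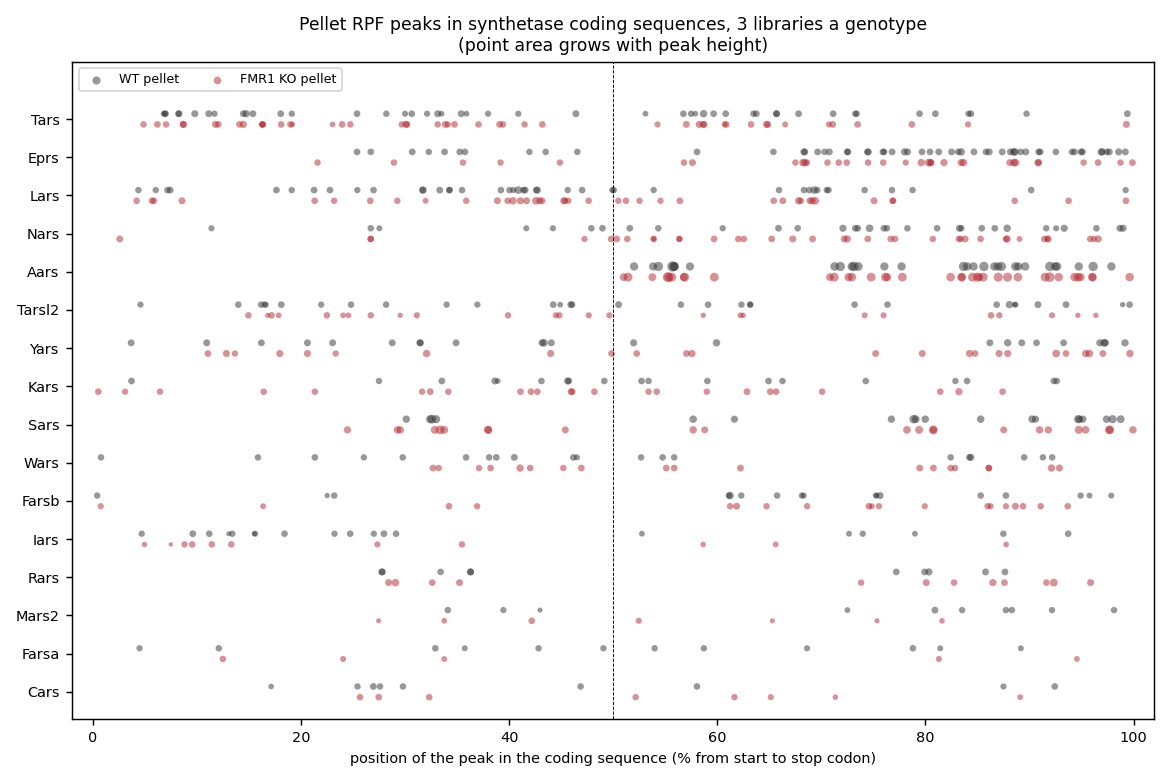
Position of each pellet RPF peak in the coding sequence of the synthetase genes with 10 or more coding peaks, in % from start to stop codon, for the WT (grey) and FMR1 KO (red) libraries, 3 of each. All 66 Aars peaks lie right of the dashed midpoint, and 72 of the 87 Eprs peaks do.

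A peak whose centre fell within 12 nt in all 6 pellet libraries was found in the coding sequence of 3 members: Aars, Sars (the seryl enzyme) and Farsb (the beta subunit of the phenylalanyl enzyme). The 6 centres spanned 20 nt for Aars, 22 nt for Sars and 20 nt for Farsb. Windows of 35 nt around these positions are shown because every pellet library had a peak there. Capitals mark the bases between the outermost peak centres. Sequence and positions are those of GRCm38 with the GENCODE M21 transcripts.
Aars: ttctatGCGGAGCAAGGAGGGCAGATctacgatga
Sars: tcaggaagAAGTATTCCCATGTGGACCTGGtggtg
Farsb: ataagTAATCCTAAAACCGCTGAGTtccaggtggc
The Aars window is at chr8:111047038-111047072 on the plus strand, in exon 12 of 21, 55.6% of the way through the coding sequence. The Sars window is at chr3:108433084-108433118 on the minus strand, in exon 5 of 11, at 33.0%. The Farsb window is spliced from exons 14 and 15 of 17, between the outer bounds chr1:78454867-78458594 on the minus strand, at 75.2%.

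Aars had the highest of these peaks. Its heights (reads at the summit, not scaled between libraries) were 178, 87 and 91 in WT and 140, 91 and 94 in FMR1 KO, so the genotypes overlapped. For Sars they were 82, 54 and 46 in WT and 79, 44 and 43 in FMR1 KO. For Farsb they were 21, 11 and 1 in WT and 15, 10 and 6 in FMR1 KO. Purines made up 62.9% of the Aars window against 53.8% of its coding sequence, 57.1% against 55.8% for Sars and 54.3% against 51.8% for Farsb. With 3 windows this is a description.

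Within 6 nt, the only peak found in all 6 pellet libraries lay on Lars2, after the stop codon, with heights of 1490, 514 and 367 in WT and 1305, 1682 and 1548 in FMR1 KO. Every one of the 13 pellet peaks of Lars2, the mitochondrial leucyl enzyme, lay after its stop codon. A stretch of 311 nt there has 7 other matches in the genome of at least 90% identity over at least 100 nt, the longest of them 232 nt at 91.4%. Reads of such a stretch can come from a copy elsewhere, so all Lars2 values below are uncertain as a measure of its mRNA.

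The cytosolic enzymes were the more abundant set at every step. In standard RNA the 21 cytosolic members summed to 1656 to 1907 CPM, and the mitochondrial members without Lars2 to 314 to 346 CPM. In the pellet the cytosolic sum was 2249 to 3422 CPM and the mitochondrial sum 152 to 254 CPM. In fraction 5/6 the cytosolic sum was 2060 to 3772 CPM and the mitochondrial sum 134 to 783 CPM. The cytosolic sums of pellet and RNA did not overlap, and neither did the mitochondrial sums, which lay the other way. The highest mitochondrial sum, in WT fraction 5/6 replicate 1, held 569.6 CPM of Aars2, the mitochondrial alanyl enzyme, against 8.4 and 19.4 CPM in the other WT libraries.

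**Figure D2:**
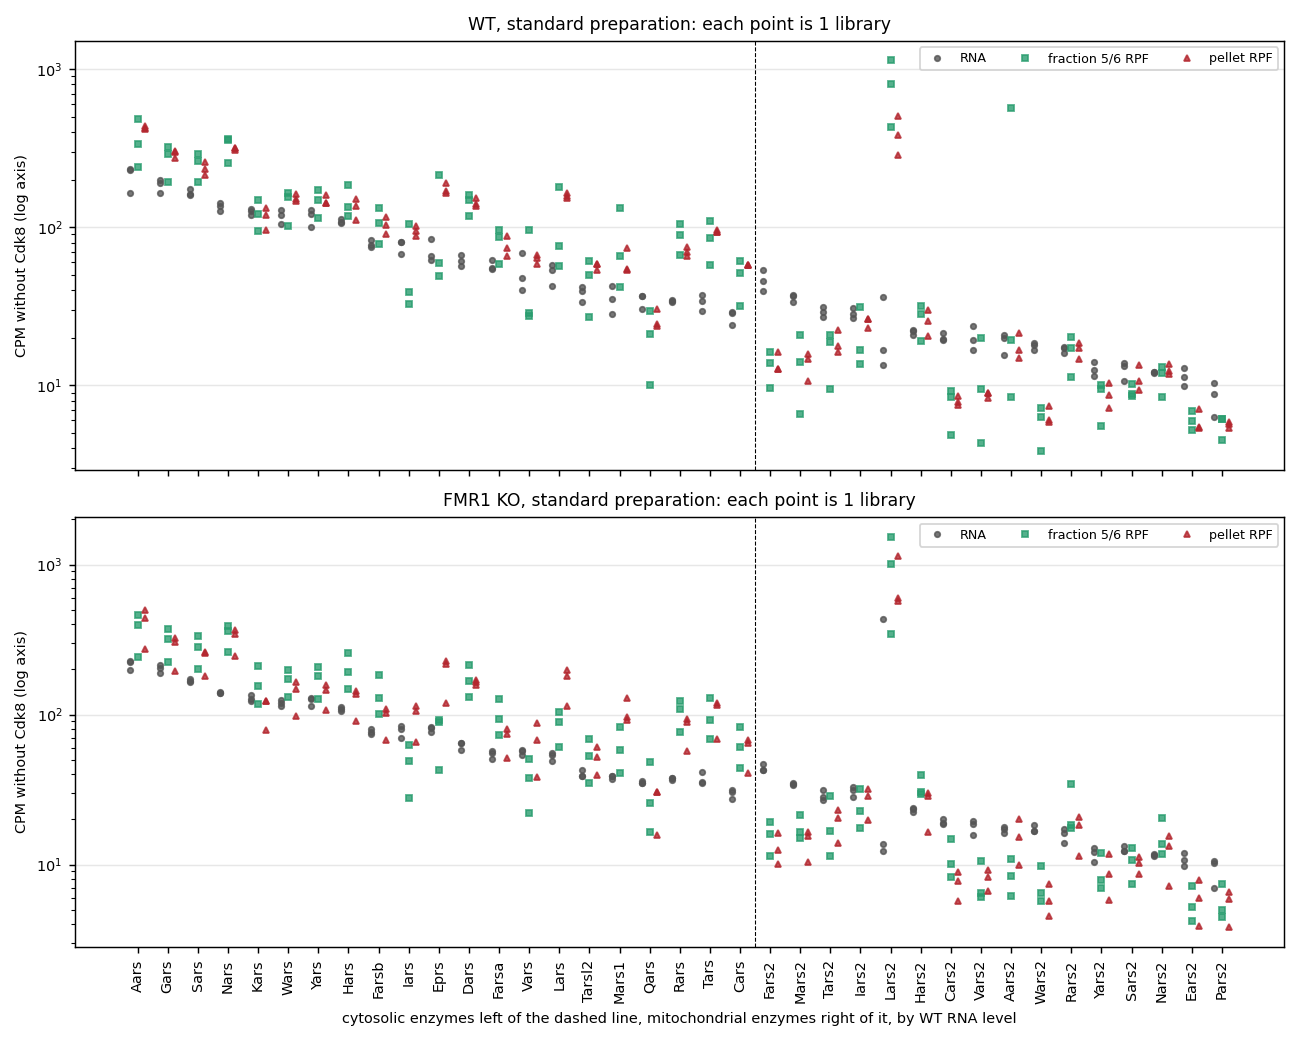
CPM without Cdk8 (log axis) of each synthetase mRNA in every standard library of WT (top) and FMR1 KO (bottom), with RNA as circles, fraction 5/6 RPFs as squares and pellet RPFs as triangles. Of the 21 cytosolic genes (left of the dashed line), 17 in WT and 10 in FMR1 KO have every pellet point above every RNA point (9.73% and 7.46% of all genes tested do), and most mitochondrial genes have them level or below, with Lars2 far above.

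Per kilobase, the order of the levels differed between RNA and pellet. In WT RNA, taken per kilobase of exon, Gars was highest at 77.8 ± 7.4 CPM per kb (SD, n = 3), followed by Wars at 64.2 ± 6.6 and Kars at 62.5 ± 2.5. Neighbours in this order, Gars with Wars and Wars with Kars, do not differ beyond their spread. In the WT pellet, taken per kilobase of coding sequence, Nars led at 187 ± 3.1 CPM per kb (SD, n = 3), then Sars at 153 ± 14, Aars at 147 ± 3.2, Lars2 at 144 ± 40 and Gars at 134 ± 7.6. Sars, Aars and Lars2 overlapped in their spread, and Gars overlapped Sars and Lars2. The lowest was Vars2 at 2.73 ± 0.11 CPM per kb. The class medians were 28.3 CPM per kb for cytosolic and 5.59 for mitochondrial enzymes in WT RNA, and 50.1 and 7.80 in the WT pellet. Among all coding genes the median cytosolic member stood at the 80.4 percentile in WT RNA and at 88.5 in the WT pellet, and the median mitochondrial member at 45.7 and 56.7. The divisors differ: mitochondrial members had a median of 3336 nt of exon and 1656 nt of coding sequence, and cytosolic members 2800 and 2166 nt. Rises from RNA to pellet in these values therefore need not be rises in CPM, and the mitochondrial CPM sums fell.

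Relative to RNA, and centred on the bulk of genes, the cytosolic synthetase mRNAs were high in the pellet. This ratio, occupancy, sets pellet RPFs against homogenate RNA of the same genotype. In WT, all 21 cytosolic members passed as higher and none as lower by edgeR's quasi-likelihood test with TMM normalization (a scaling that centres the bulk of genes) at an adjusted p of 0.05, where 31.1% of all genes tested passed as higher and 34.2% as lower. Of the 17 mitochondrial members, 11 passed as higher and 1 as lower. The median log2 fold change was 1.72 for cytosolic and 0.64 for mitochondrial members, against -0.10 for all genes.

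The leucyl enzyme Lars, a member of the multisynthetase complex, stood at 42.6, 53.4 and 57.4 CPM in WT RNA and at 165, 154 and 158 CPM in the WT pellet. Its libraries were far apart, and its log2 fold change was 2.80 ± 0.15 (SE, edgeR adjusted p = 8.8e-06). Tars, the threonyl enzyme, stood at 29.5, 34.2 and 37.4 CPM in RNA and at 93.7, 96.5 and 92.7 CPM in the pellet, a log2 fold change of 2.64 ± 0.13. Eprs, a single protein that carries the glutamyl and prolyl enzymes, stood at 66.2, 62.3 and 84.7 CPM in RNA and at 171, 164 and 190.5 CPM in the pellet, a log2 fold change of 2.47 ± 0.17. Nars, the asparaginyl enzyme, went from 126, 141 and 135 CPM in RNA to 315, 318 and 307 CPM in the pellet, a log2 fold change of 2.38 ± 0.12. For all 4 genes each pellet library lay above each RNA library.

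The genes of both compartments, Gars and Kars, stood lower than Lars, Tars, Eprs and Nars, with Gars above the cytosolic median of 1.72 and Kars below it. Gars stood at 165, 199 and 192 CPM in RNA and at 299, 304 and 273 CPM in the pellet, a log2 fold change of 1.81 ± 0.13. Kars stood at 127, 129 and 119.9 CPM in RNA and at 119, 132 and 95.4 CPM in the pellet, so its libraries overlapped in CPM, and its TMM log2 fold change was 1.02 ± 0.12 (edgeR adjusted p = 0.00019). Tarsl2, a threonyl enzyme related to Tars, went from 33.8, 42.0 and 39.6 CPM to 58.2, 53.5 and 58.3 CPM, a log2 fold change of 1.72 ± 0.14. The lowest cytosolic value was that of Qars, the glutaminyl enzyme, with 36.9, 30.6 and 36.8 CPM in RNA, 23.6, 24.5 and 30.4 CPM in the pellet and a TMM log2 fold change of 0.75 ± 0.16 (edgeR adjusted p = 0.0049). Its pellet libraries lay below its RNA libraries in CPM, the only cytosolic member of which this held in WT.

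Among the mitochondrial members Lars2 had the largest value, from 16.8, 13.4 and 36.2 CPM in WT RNA to 504, 382 and 286 CPM in the pellet, a log2 fold change of 5.31 ± 0.44 that carries the doubt about its stretch. Hars2, the mitochondrial histidyl enzyme, had 1.36 ± 0.12, with 20.8, 22.3 and 22.0 CPM in RNA and 25.5, 29.9 and 20.4 CPM in the pellet, which overlapped in CPM. The lowest mitochondrial value was -0.60 ± 0.14 for Fars2, the phenylalanyl enzyme (edgeR adjusted p = 0.0074). Fars2 stood at 54.0, 39.6 and 46.0 CPM in RNA and at 12.7, 16.4 and 12.7 CPM in the pellet, and no library of one overlapped the other. Fars2 fell and was the only member of either class that passed as lower in WT.

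How many genes count as higher depends on the scaling. With library sizes alone in place of TMM the median of all genes moved from -0.10 to -1.26 in WT, and the higher share of all calls from 47.6% to 11.4%. The cytosolic members then had 15 higher and 1 lower, and the mitochondrial members 1 higher and 9 lower, where of all genes 8.74% were higher and 67.6% lower. Kars turned from 1.02 to -0.12 in WT and from 0.84 to -0.24 in FMR1 KO. Qars turned from 0.75 to -0.41 in WT, where it passed as lower (edgeR adjusted p = 0.042), and from 0.60 to -0.47 in FMR1 KO, where it did not pass. Relative to the median of all genes the class medians hardly moved, 1.82 and 0.74 with TMM and 1.82 and 0.73 with library sizes. In plain CPM, every pellet library lay above every RNA library for 17 cytosolic members and below for 1, and for the mitochondrial members it was 1 above and 10 below, where of all genes tested 9.73% lay above and 70.1% below.

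In FMR1 KO all 21 cytosolic members passed as higher, against 31.7% of all genes, and of the mitochondrial members 9 passed as higher and 2 as lower, against 35.2% of all genes lower. On library sizes these were 9 higher and 0 lower, and 0 higher and 8 lower, against 7.94% of all genes higher and 62% lower, the median of all genes moved from -0.07 to -1.17, and the higher share of all calls from 47.4% to 11.4%. In plain CPM every pellet library lay above every RNA library for 10 cytosolic members, below for 1, and the libraries of 10 overlapped. For the mitochondrial members it was 1 above and 9 below, and of all genes tested 7.46% lay above and 67.2% below. Lars was first of those that passed (2.72 ± 0.12), followed by Mars1, the methionyl enzyme (2.65 ± 0.29), Dars, the cytosolic aspartyl enzyme (2.54 ± 0.20), Tars (2.51 ± 0.14) and Eprs (2.3 ± 0.14). Gars had 1.52 ± 0.11, Tarsl2 1.44 ± 0.09 and Kars 0.84 ± 0.10. Fars2 (-0.68 ± 0.12) and Wars2, the tryptophanyl enzyme (-0.46 ± 0.14), fell. Lars2 had 3.51 ± 1.48 and did not pass (edgeR adjusted p = 0.073), with 433 CPM in FMR1 KO RNA replicate 2 against 12.4 and 13.6 CPM in the others. Fmr1 itself had a log2 fold change of 1.20 ± 0.11 in WT and -0.69 ± 0.17 in FMR1 KO.

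**Figure D3:**
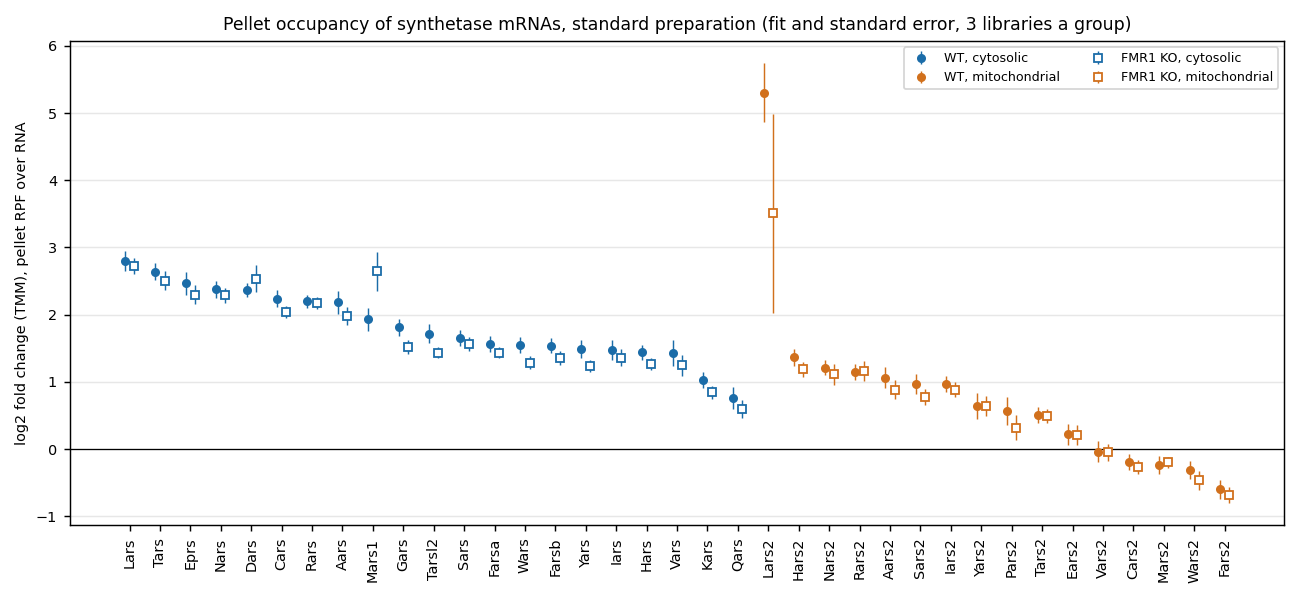
log2 fold change (TMM) of pellet RPFs over RNA with its standard error for each synthetase gene but 1 mitochondrial member, in WT (filled) and FMR1 KO (open), 3 libraries a group, cytosolic and mitochondrial genes in separate colours. The cytosolic genes run from 0.75 (Qars) to 2.80 (Lars) in WT, and the mitochondrial genes shown other than Lars2 from -0.60 (Fars2) to 1.36 (Hars2).

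The cytosolic median lay above the mitochondrial median in every pellet library. The distance between them was 1.08 in WT and 0.88 in FMR1 KO by the fit. Taken from log2 CPM of each pellet library against the mean of the RNA libraries, another estimate, it was 0.91, 1.01 and 1.07 in WT and 1.01, 0.95 and 0.80 in FMR1 KO. Without Lars2 it was 1.11 in WT. Members of the multisynthetase complex had a median of 2.06 in WT (8 genes) and the other cytosolic enzymes 1.65 (13 genes), and in FMR1 KO 2.24 and 1.44. For fraction 5/6 over RNA these medians were 2.02 and 1.74 in WT, 1.43 and 1.69 in WT without the library labelled replicate 3, and 1.40 and 1.64 in FMR1 KO, and for low nuclease occupancy 1.10 and 1.2 in WT and 1.11 and 1.32 in FMR1 KO, so the complex was not the higher group throughout. The complex held both the highest cytosolic value (Lars) and the lowest (Qars and Kars), so the group was wide, from 0.75 to 2.80 in WT.

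Fraction 5/6 set against the same RNA libraries showed the class difference too. In WT 18 cytosolic members passed as higher and 10 mitochondrial members as higher with 1 lower, where 28.3% of all genes passed as higher and 27.6% as lower. In FMR1 KO it was 19 cytosolic higher, 7 mitochondrial higher and 1 lower, against 29.7% and 33.1%. The class distance was 1.13 in WT and 1.37 in FMR1 KO by the fit, and from CPM it was 1.09, 1.12 and 1.20 in the WT libraries and 1.00, 1.51 and 1.00 in those of FMR1 KO. Scaled by library size, the cytosolic members had 7 higher and 0 lower in WT and 11 higher and 1 lower in FMR1 KO, and the mitochondrial members 2 higher and 6 lower, and 1 higher and 8 lower. Of all genes 5.72% were then higher and 59.2% lower in WT, and 8.1% and 55.8% in FMR1 KO. Kars then turned to -0.045 in WT and Eprs to -0.11 in FMR1 KO. The higher share of all calls moved from 50.6% to 8.81% in WT and from 47.3% to 12.7% in FMR1 KO. Without the library labelled WT replicate 3, 26 members were higher and 3 lower in WT, where 27.9% of all genes passed as higher and 32.0% as lower.

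The largest WT values were Lars2 (6.56 ± 0.74), Aars2 (4.47 ± 1.48, edgeR adjusted p = 0.038), Mars1 (2.61 ± 0.58), Rars, the arginyl enzyme (2.60 ± 0.13), and Tars (2.56 ± 0.17). The Aars2 value rests on the 569.6 CPM of replicate 1 named above. In FMR1 KO, where Aars2 stood at 6.19, 8.34 and 11 CPM, its value was -0.12 ± 0.14. The FMR1 KO order was Rars (2.37 ± 0.14), Dars (2.35 ± 0.12), Tars (2.24 ± 0.13), Nars (2.17 ± 0.16) and Cars, the cysteinyl enzyme (1.96 ± 0.12). Eprs had 1.80 ± 0.51 in WT and 0.78 ± 0.21 in FMR1 KO, Gars 1.78 ± 0.18 and 1.49 ± 0.14, Kars 1.21 ± 0.15 and 1.22 ± 0.12, and Tarsl2 1.48 ± 0.19 and 1.26 ± 0.13. Without the library labelled WT replicate 3 the WT values were 0.90 ± 0.16 for Eprs, 1.64 ± 0.16 for Gars, 1.21 ± 0.13 for Kars, 1.24 ± 0.16 for Tarsl2, 6.58 ± 0.74 for Lars2 and 4.98 ± 1.27 for Aars2. Lars2 had 3.70 ± 1.5 in FMR1 KO (edgeR adjusted p = 0.063). Fars2 was lower in both genotypes (-0.57 ± 0.17 and -0.61 ± 0.13). Fmr1 had 1.14 ± 0.96 and -0.25 ± 0.12 and did not pass.

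Enrichment, the level of RPFs in the pellet against those in fraction 5/6, was called for few members. In FMR1 KO of the standard preparation 6 members passed as higher and none as lower, where 10.1% of all genes passed as higher. They were Eprs, Iars (the isoleucyl enzyme), Lars and Vars (the valyl enzyme) of the cytosol and Aars2 and Iars2 of the mitochondrion. With all groups fitted together 4 cytosolic and no mitochondrial members passed, where 9.36% of all genes passed as higher and 2.85% as lower. With the replicate block it was 5 and 1, where 6.29% of all genes passed as higher and 0.12% as lower. The class distance was 0.02 by the fit, and from CPM it was 0.041, -0.077 and -0.028 in the 3 pellet libraries, on both sides of 0.

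Eprs stood at 42.8, 89.1 and 92.2 CPM in FMR1 KO fraction 5/6 and at 217, 119 and 228 CPM in the pellet, a log2 fold change of 1.67 ± 0.26 (edgeR adjusted p = 0.01). Iars stood at 27.6, 49.3 and 62.3 CPM in fraction 5/6 and at 106, 65.2 and 114 CPM in the pellet, a log2 fold change of 1.40 ± 0.19 (edgeR adjusted p = 0.007). Lars stood at 60.6, 89.8 and 105 CPM in fraction 5/6 and at 199.5, 114 and 180.3 CPM in the pellet, a log2 fold change of 1.29 ± 0.17 (edgeR adjusted p = 0.0057). In these 3 genes every pellet library was above every fraction library. The same held for Mars1, which did not pass, and Hars lay the other way. The share of all genes whose libraries separate in this comparison was not computed, so these separations are descriptions.

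Vars stood at 22.0, 37.6 and 50.4 CPM in fraction 5/6 and at 67.4, 38.1 and 87.5 CPM in the pellet (1.16 ± 0.22), and Aars2 at 6.19, 8.34 and 11 CPM and at 15.2, 9.89 and 20.2 CPM (1.16 ± 0.18). Pellet replicate 2 was the low library in each, and the groups overlapped in both. Iars2 had a log2 fold change of 0.52 ± 0.11. Mars1 had 1.21 ± 0.39 and did not pass (edgeR adjusted p = 0.095), and Tarsl2 (0.33), Gars (0.19), Lars2 (-0.03) and Kars (-0.22) did not pass either. When library sizes replaced TMM, none of the 38 members passed, where 1.1% of all genes passed as higher and 0.188% as lower, and the median of all genes was -0.34. None passed either without replicate 1 or without replicate 3 of both groups, and 3 passed without pellet replicate 1 or without fraction 5/6 replicate 3 alone.

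In WT of the standard preparation no member passed, where 0.0229% of all genes passed in either direction. By edgeR 1 member had an unadjusted p under 0.05, and DESeq2 called none. The WT fraction libraries were wide for the same genes. Eprs stood at 59.7, 49.0 and 214 CPM in WT fraction 5/6 against 171, 164 and 190.5 CPM in the pellet, a log2 fold change of 0.77 ± 0.52. Its high fraction value came from the library labelled replicate 3, which also held 105 CPM of Iars, 181 CPM of Lars and 95.8 CPM of Vars, each the highest of the group. Without that library 3 members passed: Eprs (1.62), Iars (1.34) and Lars (1.20), with edgeR adjusted p of 0.013, 0.018 and 0.011, where 7.67% of all genes passed as higher and 1.75% as lower. Vars then had 1.05. Over the alternatives that leave out 1 library or 1 replicate number, the count of passing members ran from 0 to 3. Lars2 had -1.16 ± 0.54, Gars 0.14, Kars -0.07 and Tarsl2 0.35, with all libraries. Fmr1 had 0.17 ± 0.99 in WT and -0.28 ± 0.20 in FMR1 KO, without passing.

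In the low nuclease preparation enrichment was found in both genotypes. In WT 8 members passed as higher, where 14.3% of all genes did, and 1 as lower, where 8.63% did. Iars had 1.5 ± 0.26, Aars2 1.30 ± 0.26, Eprs 1.20 ± 0.19, Vars 1.20 ± 0.23 and Lars 0.93 ± 0.24, and Hars, the histidyl enzyme, fell by 0.43. Iars stood at 33.6, 55.8 and 28.9 CPM in WT fraction 5/6 and at 113, 98.9 and 98.9 CPM in the pellet, with no overlap. In FMR1 KO 7 members passed as higher, where 9.3% of all genes did: Eprs (1.37 ± 0.15), Iars (1.34 ± 0.13), Lars (1.05 ± 0.21), Vars (0.92 ± 0.10), Aars2 (0.79 ± 0.11), Iars2 (0.64 ± 0.13) and Mars1 (0.45 ± 0.10). Gars had 0.21 in WT and 0.40 in FMR1 KO, Kars -0.33 and -0.11, Tarsl2 0.04 and 0.80, and Lars2 0.07 and 1.15, and none of these passed. Fmr1 had -0.56 ± 0.11 in WT and 0.04 ± 0.18 in FMR1 KO. All 6 members called in standard FMR1 KO were among the 8 of low nuclease WT (75.0% of that list) and among the 7 of low nuclease FMR1 KO (85.7%). These are separate libraries of the same gradient positions. Scaled by library size, 7 members were higher and 4 lower in WT, where 10.1% and 12.3% of all genes were, and 5 and 5 in FMR1 KO, where 7.41% and 27.3% were, and the higher share of all calls moved from 62.4% to 45.3% and from 46.5% to 21.4%. These counts rest on few libraries. Leaving out 1 library or 1 replicate number gave 0 to 8 passing members in WT (0 without replicate 1, 1 without replicate 3) and 0 to 5 in FMR1 KO (0 without replicate 2 or 3), and with all groups fitted together there were 4 in each. Of all genes, 7.56% in WT and 6.17% in FMR1 KO passed in either direction with all groups fitted together.

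The members called were the long ones. This split was made after the values were seen. The longest coding sequences among the members are those of Eprs (4536 nt), Vars (3789 nt), Iars (3786 nt), Lars (3534 nt), Vars2 (3180 nt), Iars2 (3036 nt), Aars2 (2940 nt) and Aars (2904 nt). All 6 members called in standard FMR1 KO are among these 8, as are 7 of the 8 called in low nuclease WT and 6 of the 7 in low nuclease FMR1 KO. Mars1 (2730 nt), the exception in both low nuclease lists, comes next. Over the 21 cytosolic members the correlation of enrichment with log2 coding length was r = 0.67 in standard WT, 0.89 in standard FMR1 KO, 0.92 in low nuclease WT and 0.90 in low nuclease FMR1 KO, and Spearman's rho was 0.64, 0.74, 0.85 and 0.83. Over the 17 mitochondrial members r was -0.50, 0.53, 0.73 and 0.73 and rho -0.16, 0.37, 0.66 and 0.78 in the same order. The correlation is across genes that share the same libraries and is a description.

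Over the whole table the correlation was positive in all 4 comparisons. Across all genes r was 0.23, 0.41, 0.36 and 0.44 and rho 0.42, 0.57, 0.48 and 0.60 in the same order, and over all 38 members r was -0.01, 0.77, 0.80 and 0.84 and rho 0.30, 0.58, 0.69 and 0.78. All 38 members together thus lay below all genes by both measures in standard WT, and the cytosolic members alone lay above (r = 0.67, rho 0.64). That comparison includes the library labelled WT replicate 3 of fraction 5/6, and no correlation without it is given. Without it the 8 longest had 1.62 (Eprs), 1.05 (Vars), 1.34 (Iars), 1.20 (Lars), -0.41 (Vars2), 0.66 (Iars2), -3.81 (Aars2) and 0.51 (Aars). The Aars2 value rests on WT fraction 5/6 replicate 1, as given above. In standard FMR1 KO the median log2 enrichment of genes with coding sequences over 3000 nt was 0.78 against -0.06 for the shorter, and for the members it was 1.23 (6 genes) against 0.14. Vars2 and Aars, long members, had 0.46 and 0.49 there and did not pass, and in standard WT Aars2 had -3.27 ± 1.45. In the low nuclease preparation the members' medians were 1.06 against 0.06 in WT and 0.98 against 0.13 in FMR1 KO.

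**Figure D4:**
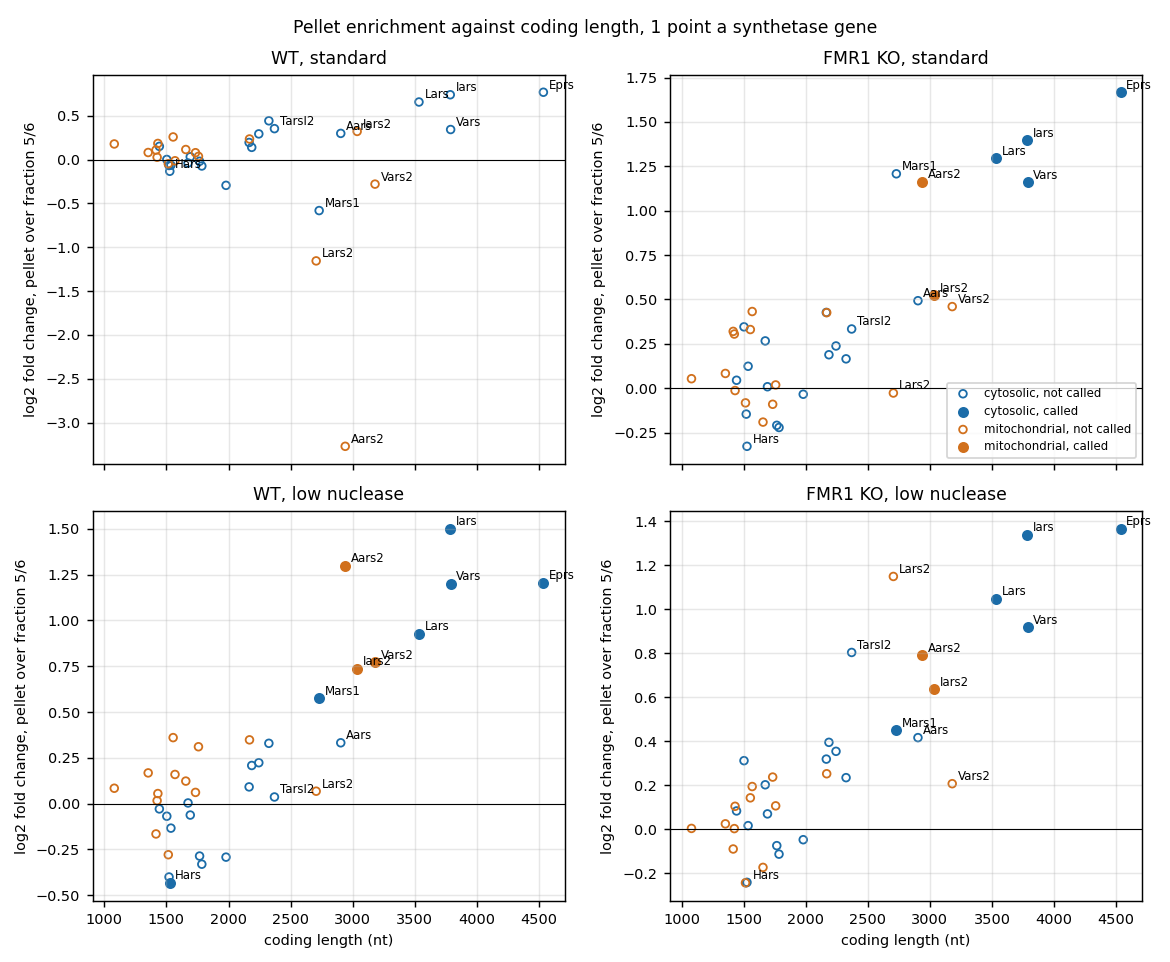
log2 fold change of pellet over fraction 5/6 RPFs against coding length in nt, 1 point a synthetase gene (1 mitochondrial member not plotted), for both genotypes and preparations, with filled points for genes that passed an adjusted p of 0.05. The 4 longest genes (Eprs, Vars, Iars, Lars) are the upper right points of the FMR1 KO standard panel, between 1.16 and 1.67, and Aars2 stands at -3.27 in the WT standard panel.

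No synthetase mRNA was called between the genotypes. In RNA none of the 38 passed, where 0.0736% of all genes passed, and 1 had an unadjusted p under 0.05 by edgeR and none was called by DESeq2. In the pellet none passed, where 0.0152% of all genes did, with 1 at an unadjusted p under 0.05 by edgeR and none called by DESeq2. In fraction 5/6 none passed, where 0% of all genes did, with 1 at an unadjusted p under 0.05 by edgeR and none called by DESeq2. Fmr1 fell by 1.90 on the log2 scale in RNA (SE 0.10, edgeR adjusted p = 3.6e-05) and by 3.72 in the pellet (SE 0.18, edgeR adjusted p = 0.0060). In fraction 5/6, with the library against its label, it had -3.27 ± 1.08 and did not pass.

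Most members had small differences in the pellet. The class medians of FMR1 KO over WT were -0.0034 for cytosolic and -0.012 for mitochondrial members. Eprs had 0.09 ± 0.17, Kars -0.07 ± 0.10, Gars -0.08 ± 0.11 and Tarsl2 -0.14 ± 0.12. Replicate 2 of the FMR1 KO pellet was the lowest for most cytosolic members, as for Eprs with 119 CPM against 217 and 228 CPM.

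Mars1 was the cytosolic member with the largest difference. It stood at 53.5, 74.1 and 54.6 CPM in the WT pellet and at 95.8, 129 and 92.5 CPM in the FMR1 KO pellet. The genotypes did not overlap, and its log2 fold change was 0.92 ± 0.30 (edgeR adjusted p = 0.86). In RNA it stood at 28.2, 35.3 and 42.4 CPM in WT and at 38.7, 37.4 and 38.7 CPM in FMR1 KO. In the low nuclease pellet it stood at 68.7, 67.7 and 62.2 CPM in WT and at 59.4, 55.4 and 55.3 CPM in FMR1 KO, which did not overlap either, with FMR1 KO below WT, as 10.8% of all genes did not overlap in one direction or the other there. The direction seen in one preparation was thus not found in the other, and the test passed in neither.

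Dars (140.1, 153 and 136 CPM in the WT pellet, 157, 171 and 164 CPM in FMR1 KO) and Lars2 (log2 fold change 1.14 ± 0.47, edgeR adjusted p = 0.86) were the other members whose standard pellet libraries did not overlap, which makes 3 of 38 where 5.5% of all genes did not overlap. In fraction 5/6 Aars2 had -4.67 ± 1.54, Mars1 -0.86 ± 0.61, Eprs -0.78 ± 0.53 and Lars2 0.02 ± 0.79, and Gars, Kars and Tarsl2 lay between -0.11 and 0.09. Without the library labelled WT replicate 3, Aars2 had -5.21 ± 1.38, Mars1 -1.09 ± 0.68, Eprs 0.04 ± 0.28 and Lars2 -0.09 ± 0.93, so Eprs and Lars2 changed sign. None of the 38 passed then either, with 2 at an unadjusted p under 0.05 by edgeR. In RNA Lars2 had 2.87 ± 1.22 through the single library of 433 CPM, and Eprs 0.21 ± 0.12.

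**Figure D5:**
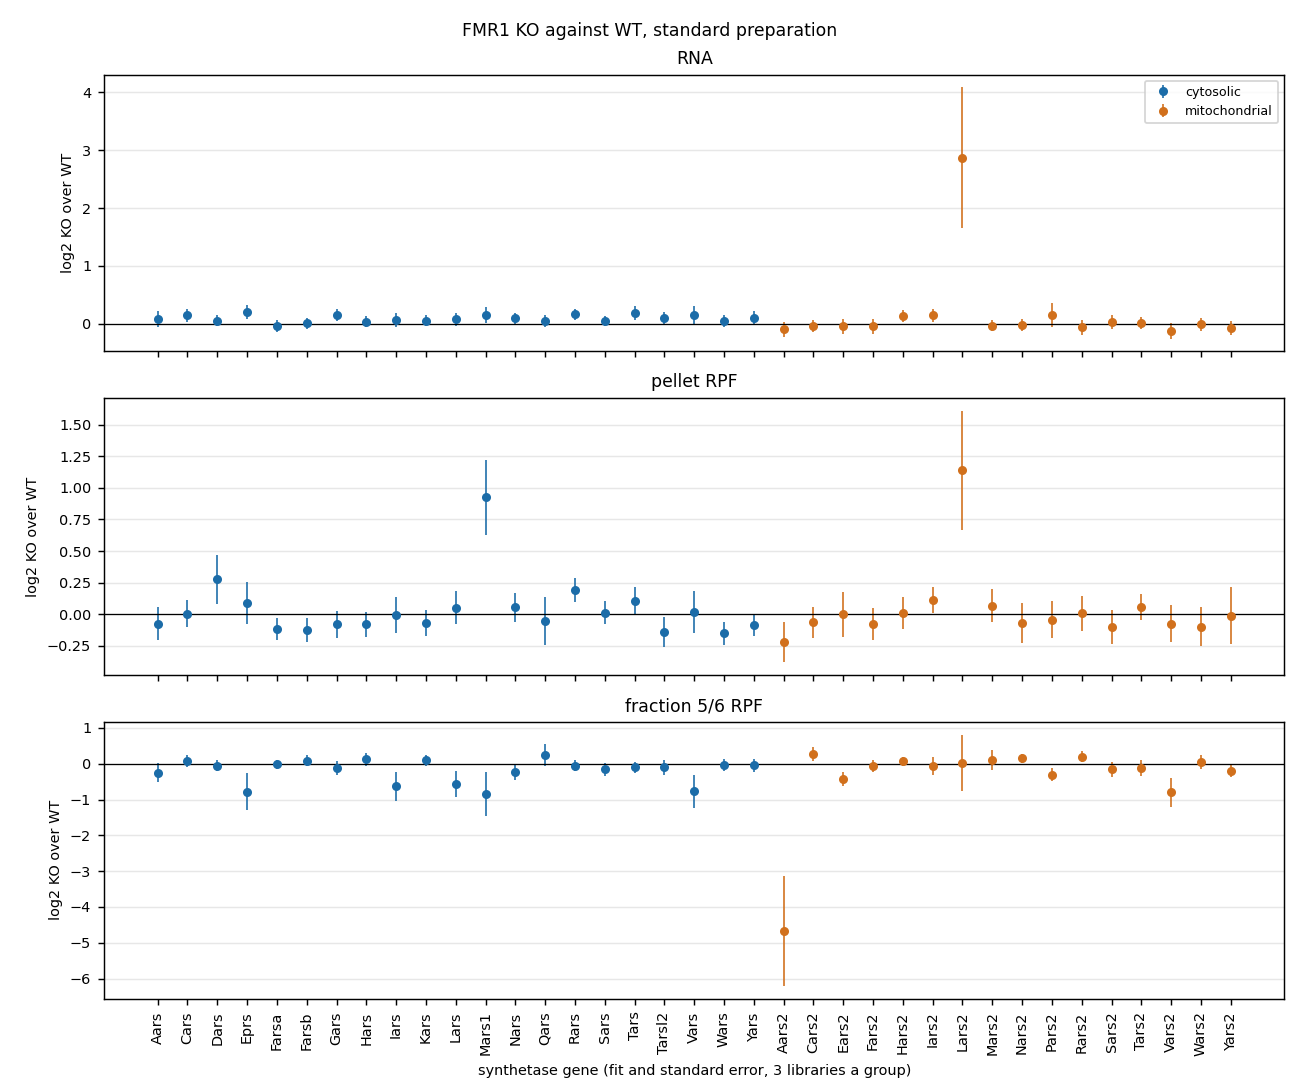
log2 fold change of FMR1 KO over WT with its standard error for each synthetase gene but 1 mitochondrial member in RNA, pellet RPFs and fraction 5/6 RPFs of the standard preparation, 3 libraries a group, each panel on its own scale. Most points lie near 0, Mars1 stands at 0.92 and Lars2 at 1.14 in the pellet, and Aars2 at -4.67 in fraction 5/6.

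The test of whether occupancy itself differed between genotypes called none of the 38 members, where 0.067% of all genes passed. No member had an unadjusted p under 0.05 by edgeR, and DESeq2 called none. Mars1 had the highest value (0.76 ± 0.35) and Lars2 the lowest (-1.76 ± 1.56). Fmr1 passed, with -1.85 ± 0.18. The same test of enrichment called none, where 0% of all genes passed, with 2 members at an unadjusted p under 0.05 by edgeR and none called by DESeq2. Eprs had 0.86 ± 0.62 there, and 0.04 ± 0.36 without the library labelled WT replicate 3 of fraction 5/6, where again none was called and 2 had an unadjusted p under 0.05 by edgeR. The larger number of enriched members in FMR1 KO than in WT of the standard preparation is therefore not a tested difference. In the low nuclease preparation no member was called between genotypes in the pellet, where 0.0197% of all genes passed, or in fraction 5/6, where 0.0445% passed. No member had an unadjusted p under 0.05 by edgeR in either, and DESeq2 called none. Tarsl2 had 0.69 ± 0.36 in the low nuclease pellet, where it stood at 63.8, 64.4 and 153 CPM in FMR1 KO and at 63.5, 60.7 and 62.1 CPM in WT. Eprs, Gars, Kars and Lars2 had -0.05, 0.12, 0.15 and 0.65 there, and -0.24, -0.11, -0.11 and -0.47 in fraction 5/6. Fmr1 passed in both, at -2.92 ± 0.09 and -3.56 ± 0.19.

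Occupancy was also found in the low nuclease preparation, where 3 of the 6 RNA libraries stood apart as given above. In WT 19 cytosolic members passed as higher and none as lower, and 7 mitochondrial members as higher and 1 as lower, where 26.6% of all genes passed as higher and 25.5% as lower. The highest were Dars (2.43 ± 0.22), Farsb (2.34 ± 0.19), Tars (2.00 ± 0.35), Rars2 (1.88 ± 0.26) and Rars (1.76 ± 0.26), and Vars2 fell by 0.81. In FMR1 KO 16 cytosolic and 6 mitochondrial members passed as higher and none as lower, where 16.1% and 12.9% of all genes did. There Farsb had 2.39 ± 0.24, Dars 2.38 ± 0.25, Gars 2.12 ± 0.40, Tarsl2 2.01 ± 0.37 and Tars 1.76 ± 0.33. Eprs had 0.96 ± 0.31 in WT and 0.92 ± 0.23 in FMR1 KO, and Kars 1.10 ± 0.24 and 1.09 ± 0.21. In WT Gars had 1.73 ± 0.21 and Tarsl2 1.33 ± 0.16. On library sizes 1 member passed in WT, as lower, and none in FMR1 KO, where of all genes 1.69% were higher and 0.27% lower in WT and 1.3% and 0.0984% in FMR1 KO, while the cytosolic median went from 1.16 to 1.29 in WT and from 1.22 to 1.90 in FMR1 KO. The higher share of all calls then moved from 51.1% to 86.2% and from 55.5% to 93.0%. Without WT RNA replicate 2, 29 members passed in WT, and the share of all genes in that fit is not given here, so the count has no background. Leaving out FMR1 KO RNA replicates 2 and 3 leaves 1 RNA library, so no count is given for it.

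Lars2 was the member most unlike itself in these libraries. It stood at 24.8, 32908 and 24.1 CPM in low nuclease WT RNA and at 26.6, 43114 and 86129 CPM in FMR1 KO RNA, and its log2 fold change of pellet over RNA was -6.95 ± 3.27 in WT and -8.60 ± 3.02 in FMR1 KO (edgeR adjusted p = 0.11 and 0.068). The high libraries are those in which 10 genes took most counts. The class distance was 0.76 in WT and 0.42 in FMR1 KO by the fit, and from CPM it was 0.98, 0.98 and 0.91 in the WT pellet libraries and 0.95, 0.86 and 0.70 in those of FMR1 KO. The FMR1 KO distance moved to 0.76 with library sizes, to 0.24 without RNA replicate 1 and to 0.67 without RNA replicate 3.

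Between preparations, the pellet of WT held relatively more of the cytosolic synthetases under standard nuclease by TMM. There 15 cytosolic members passed as higher than in low nuclease and none as lower, where 15% of all genes passed as higher and 24% as lower, and among the mitochondrial members only Mars2 passed, as lower (-0.43 ± 0.13). The largest were Lars (0.60 ± 0.14), Nars (0.58 ± 0.11), Sars (0.52 ± 0.10), Dars (0.49 ± 0.09) and Eprs (0.44 ± 0.13), with Kars at 0.36 ± 0.11, Gars at 0.34 ± 0.10, Tarsl2 at 0.40 ± 0.11 and Lars2 at 0.27 ± 0.78. Of the 38, 8 passed with the replicate number as a block (7 higher), where 34.2% of all genes passed in either direction and 10.9% as higher. With all groups fitted together 6 passed, where 25.7% of all genes passed in either direction. Leaving out 1 library or 1 replicate number gave 0 to 14, with 0 without replicate 1, 1 without standard pellet replicate 1 and 3 without low nuclease pellet replicate 1. The direction depends on the scaling. With library sizes alone Sars, Dars, Eprs, Kars, Gars and Tarsl2 turned to values from -0.18 to -0.0075, none of the 38 was higher and 13 were lower, where 2.03% and 48.9% of all genes were, the median of all genes moved from -0.04 to -0.56 and the higher share of all calls from 38.4% to 3.99%. In plain CPM Nars stood at 315, 318 and 307 in standard and at 319, 309 and 277 in low nuclease. In FMR1 KO only Mars1 passed (1.48 ± 0.31, edgeR adjusted p = 0.028), where 7.4% of all genes passed as higher. The higher share of all calls there moved from 43.7% to 7.44% with the scaling. Its 3 standard libraries (92.5 to 129 CPM) lay above its 3 low nuclease libraries (55.3 to 59.4 CPM), but the call was lost with the replicate block, without replicate number 1 or 3, without standard pellet replicate 1 and without low nuclease pellet replicate 2 or 3, and 9 members passed without low nuclease pellet replicate 1. Lars2 (0.84), Eprs (0.63), Gars (0.20), Kars (0.19) and Tarsl2 (-0.36) did not pass. Fmr1 had 0.62 ± 0.09 in WT, which passed, and -0.13 ± 0.19 in FMR1 KO.

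Other genes of the charging pathway did not all follow the cytosolic enzymes. Their occupancy is given as the TMM log2 fold change in WT and then in FMR1 KO, centred on the bulk of genes as for the members. Of the 3 scaffold genes of the multisynthetase complex, Aimp1 (2.09 and 1.90) and Aimp2 (1.53 and 1.45) passed as higher in both, and Eef1e1 (-0.16 and -0.35) passed as lower in FMR1 KO only. Aimp1 stood at 31.4, 27.1 and 27.4 CPM in WT RNA and at 54.6, 61.4 and 48.5 CPM in the WT pellet, with no overlap.

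The mitochondrial amidotransferase and formyltransferase genes, which act after the mitochondrial enzymes, gave 1 higher and 2 lower of 4 in both genotypes. Qrsl1 was higher (1.27 and 1.26), Gatc (-2.08 and -2.23) and Mtfmt (-0.53 and -0.46) were lower, and Gatb had 0.31 and 1.26 without passing. Of 7 genes that carry charged tRNAs to the ribosome or recharge their carrier, 3 passed as higher and 4 as lower in both genotypes. Eef1a2, the elongation factor form of mature neurons, was higher (1.68 and 1.51), and Eef1a1, the form of most other cells, was lower (-1.69 and -1.73). Of 5 genes of tRNA end repair and editing, 4 passed as higher and 1 as lower, led by Aarsd1, an editing protein related to the alanyl enzyme (1.65 and 1.38).

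ATF4 is a transcription factor that raises synthetase genes and amino acid genes when charged tRNAs run short. Of 14 genes of that response, Atf4 among them, 8 passed as higher and 3 as lower in WT, and 7 and 3 in FMR1 KO, where of all genes 31.1% were higher and 34.2% lower in WT and 31.7% and 35.2% in FMR1 KO, also the background of the lists above. The cystine carrier Slc7a11 stood at 22.7, 15.9 and 19.7 CPM in WT RNA and at 117, 103 and 81.7 CPM in the WT pellet (3.52 and 3.76). The asparagine synthetase Asns stood at 71.1, 87.8 and 89.6 CPM in RNA and at 196, 201 and 193 CPM in the pellet (2.40 and 1.98). Atf4 itself stood at 108, 104 and 103 CPM in RNA and at 7.38, 13.3 and 6.88 CPM in the pellet (-2.39 and -2.64), and the stress factor Ddit3 also fell (-2.17 and -2.03). No gene of these lists was called between genotypes in any comparison.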

How the data were processed

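The authors trimmed reads with Cutadapt 2.10, removed ribosomal and non-coding RNA with Bowtie2 2.3.5, aligned to GRCm38 with STAR 2.7.8a, removed duplicates with Picard and SAMtools 1.19.2 and counted genes with featureCounts 2.2.0. The deposited counts are whole numbers without normalization. Whether molecular barcodes entered duplicate removal is not given in the sources used here; without them identical fragments of different molecules could be merged. The deposited peak files give the height of RPF signal per library, not scaled between libraries, for the standard preparation. The study's rule asks that a summit exceed 4 times the mean over its transcript; whether the deposited peaks were limited to these is not given in the sources used here.

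Counts were analysed with edgeR 4.0.16 in R 4.3.3, without Cdk8, on the 16561 protein-coding rows (GENCODE M21 biotypes; 92 rows have no gene name), with filterByExpr, TMM, the quasi-likelihood test and Benjamini-Hochberg adjustment over all genes tested at 0.05, for 19 comparisons. All 38 members passed the filter on low counts in each. DESeq2 1.42.0 was an alternative. Only the groups compared entered a fit. The script was tested on simulated data. Levels and peaks came from scripts in Python 3.11.15 (numpy 2.4.6, pandas 2.3.3), sequence matches from BLAST 2.17.0 and figures from matplotlib 3.10.9. Class distances of single libraries used log2 CPM with a pseudocount of 0.5.

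Members and lists were chosen with earlier results of these data known. By rule the text names the 5 largest rises and falls that passed, with Lars2, Kars, Gars, Eprs, Tarsl2 and Fmr1. Other members were named after their values were seen. The values of 1 mitochondrial member are not reported here singly or plotted; it stays in all fits, counts and medians. The replicates of a group were given different linkers and pooled before amplification, so library pool and group cannot be told apart. By the rule used, replicate numbers did not pair the libraries: in no comparison did every pair of deviations correlate above 0.1 (lowest -0.16). Low nuclease WT enrichment came nearest, with 0.19, 0.091 and 0.21, and there each library correlated best with that of its own number. With the replicate block, calls rose there from 23.0% to 32.3% of all genes, and in low nuclease FMR1 KO enrichment from 20.0% to 30.2%. Whether pellet and fraction 5/6 are paired in these 2 comparisons was not settled.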

Additional observations from a re-analysis of the deposited data

How the results depend on the processing

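The cytosolic median stayed above the mitochondrial one in occupancy, and no genotype call appeared, under the alternatives run, whereas counts of calls moved with the scaling and, for enrichment, with single libraries. With library sizes alone in place of TMM, calls went from 32 to 17 for FMR1 KO occupancy, from 29 to 15 for WT fraction 5/6 against RNA, from 6 to 0 for standard FMR1 KO enrichment, and in low nuclease from 27 to 1 for WT and from 22 to 0 for FMR1 KO occupancy. Then Kars (-0.12) and Qars (-0.41) reversed in WT occupancy, Kars (-0.24) and Qars (-0.47) in FMR1 KO occupancy, Kars in WT fraction 5/6 over RNA (-0.045), Eprs in FMR1 KO fraction 5/6 over RNA (-0.11), and in the WT pellet between preparations Sars (-0.0075), Dars (-0.028), Eprs (-0.093), Kars (-0.15), Gars (-0.18) and Tarsl2 (-0.13), and the low nuclease occupancy distances were 0.96 in WT and 0.76 in FMR1 KO. With DESeq2 there were 14 calls instead of 9 in low nuclease WT enrichment, and 9 instead of 1 for the FMR1 KO pellet between preparations. DESeq2 called 31.7% and 29.2% of all genes in these comparisons. With all groups fitted together there were 4 in WT and 4 in FMR1 KO low nuclease enrichment (7 otherwise), and 6 (of 16) in WT and 5 in FMR1 KO between preparations. Of all genes 7.56%, 6.17%, 25.7% and 18.6% were called there, in that order. With the replicate block, the WT and FMR1 KO pellet between preparations gave 8 and 0, WT and FMR1 KO occupancy 32 and 33, low nuclease enrichment 12 and 8, and the WT fraction distance 1.06. Of all genes the block called 34.2% and 5.39% between preparations, 61.0% and 61.9% in occupancy, and 32.3% and 30.2% in low nuclease enrichment. Leaving out 1 library or 1 replicate number gave 0 to 3 calls in standard WT enrichment, 0 to 6 in standard FMR1 KO enrichment, 17 to 29 and 0 to 31 in low nuclease WT and FMR1 KO occupancy, 0 to 8 and 0 to 5 in low nuclease WT and FMR1 KO enrichment, 0 to 14 and 0 to 9 between preparations in WT and FMR1 KO, and 1 to 2 shared peaks. For FMR1 KO low nuclease occupancy the count was 0 without replicate 2, 14 without replicate 3, 10 and 14 without pellet library 1 and 3, and 8 without RNA library 2. The shares of all genes in these fits are not given here, other than those without the library labelled WT replicate 3 of fraction 5/6. The class distances ran from 0.80 to 0.99 (FMR1 KO occupancy), 0.62 to 0.93 and 0.24 to 0.67 (low nuclease WT and FMR1 KO occupancy, the last 0.24 without RNA library 1 and 0.67 without RNA library 3), 0.99 to 1.14 (WT fraction 5/6), -0.095 to 0.068 (WT enrichment) and -0.10 to 0.10 (FMR1 KO enrichment). With Tarsl2 counted as mitochondrial they were 0.93 (WT occupancy), -0.0095 and -0.049 (WT and FMR1 KO enrichment). Within 12 nt 4 peaks were shared. The cause of these shifts was not tested. Of the values of single named members under the alternatives, 626 kept their side of the threshold and their direction, 154 lost the call and 12 reversed. The lowest member count in a standard RPF library was 31 (Ears2), and in low nuclease RNA 4 (Yars2), which limits the mitochondrial members most.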
